A study of Mus musculus with 6 samples.

Results

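The transcripts described here are 10 genes by which granulosa and cumulus cells, the somatic cells around an oocyte, are commonly recognised: Amh, Amhr2, Fshr, Cyp19a1, Foxl2, Inha, Inhba, Fst, Kitl and Nr5a2. They were taken by symbol from the 25631 genes of the deposited table, and all 10 were listed. RNA was measured in 6 libraries of oocytes that had been punctured from large antral follicles of naturally aged ICR mice, 14 months old, after an injection of equine chorionic gonadotropin. The control group (n = 3 libraries, labelled Aged and untreated) came from mice given plain drinking water. The aminophylline group (n = 3 libraries, labelled Ami) came from mice that drank 4 mM aminophylline, a theophylline derivative that inhibits phosphodiesterases, for 1 week and then water for 3 weeks. All animals of both groups were of the same strain and age and received the same hormone injection, and the number of mice and oocytes behind a library is not given in the sources used here. Values are FPKM, that is counted fragments scaled to the length of the transcript and the total of the library.

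Granulosa cells surround the oocyte through follicle growth and make up most of the follicle's cells, and those nearest to the oocyte in an antral follicle are the cumulus cells. They respond to follicle-stimulating hormone, turn androgens into estrogens, and release inhibin, activin, follistatin, anti-Müllerian hormone and Kit ligand, while the oocyte answers with Gdf9 and Bmp15. Cumulus cells reach the oocyte surface through projections that cross the zona pellucida. Their transcripts are therefore often read in isolated oocytes as a measure of how free the oocytes are of attached cells.

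The 10 genes lay at very different levels in these oocyte libraries. Cyp19a1 (mean 11 ± 3.27 FPKM, SD, n = 6) and Nr5a2 (6.76 ± 1.35) were above 1 FPKM in every library, and together they made up 86.3% to 94.3% of the summed level of the 10 genes. Inha lay near 1 FPKM and Kitl near 0.5, while Fshr, Fst, Foxl2, Amhr2, Inhba and Amh stayed at or below 0.27 FPKM in all 6 libraries. Of the 10 genes, 3 reached a level at which they were tested between the aminophylline and control groups, and 0 of these 3 were called, beside 3.21% of all 10340 genes tested. The other 7 were not tested. The oocyte transcript Gdf9 was at 1518 to 3663 FPKM in the same libraries, and Cyp19a1, the highest of the 10, reached 0.201% to 1.03% of it, the most in control library 1, where Gdf9 was lowest. In bulk samples such as these, fewer cells of a type and less RNA per cell cannot be told apart.

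The starts of Cyp19a1 and Nr5a2 are shown because these were the genes of the 10 above 1 FPKM in every library, and because both have several annotated starts that the gene-level table does not separate. RefSeq promoter windows (GRCm38.p6, 250 bases before to 50 after a start) were held for 8 of the 10 genes. Each line gives the 150 bases from 100 before to 50 after a start, 5′ to 3′ on the minus strand, from which both genes are transcribed. Capitals mark TATAAA, the TATA box core, and TAATTG, a homeobox core, on either strand, overlapping copies joined.
Cyp19a1, chr9:54268115-54268264: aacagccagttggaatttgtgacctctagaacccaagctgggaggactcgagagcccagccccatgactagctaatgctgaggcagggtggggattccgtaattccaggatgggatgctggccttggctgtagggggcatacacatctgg
Cyp19a1, chr9:54228865-54229014: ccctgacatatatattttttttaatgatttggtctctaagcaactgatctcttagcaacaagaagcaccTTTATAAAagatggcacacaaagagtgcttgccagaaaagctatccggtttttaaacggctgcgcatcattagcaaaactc
Cyp19a1, chr9:54193694-54193843: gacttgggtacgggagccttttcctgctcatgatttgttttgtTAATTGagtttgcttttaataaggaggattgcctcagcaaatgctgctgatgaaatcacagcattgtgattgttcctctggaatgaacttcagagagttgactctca
Nr5a2, chr1:136960399-136960548: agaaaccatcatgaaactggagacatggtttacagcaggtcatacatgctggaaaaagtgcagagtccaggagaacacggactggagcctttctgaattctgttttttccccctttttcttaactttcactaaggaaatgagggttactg
Nr5a2, chr1:136953581-136953730: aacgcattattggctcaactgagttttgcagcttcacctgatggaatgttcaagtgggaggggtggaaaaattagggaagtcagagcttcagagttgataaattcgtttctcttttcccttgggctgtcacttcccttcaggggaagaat

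Over the whole windows of 300 bases, TATAAA was present in 5 of the 11 windows of these genes and in 13.6% of all 32851 windows, TAATTG in 4 of the 11 and in 8% of all. AAGGTCA, the core recognised by Nr5a2 and its relative Nr5a1, was present in 1 of the 11 windows, that of Amhr2, and in 4.72% of all. Such matches describe letters and are not binding sites, and which start gave the reads cannot be read from these values.

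Cyp19a1 encodes aromatase, the enzyme that turns androgens into estrogens, and spans chr9:54165937-54268164. Its level was 15.7, 7.37 and 13.9 FPKM in control libraries 1, 2 and 3, and 9.68, 8.16 and 11 FPKM in aminophylline libraries 1, 2 and 3, the order in which values are given throughout. All 3 aminophylline libraries lay between control library 2 and the other control libraries, so the groups overlapped. These values rested on 322 to 1636 reads per library, the fewest in control library 2, which had the smallest total. The mean was 12.3 ± 4.38 FPKM in the control group and 9.60 ± 1.41 in the aminophylline group (SD, n = 3 each), a difference of -0.28 ± 0.27 on the log2(FPKM + 1) scale (SE, limma, Benjamini-Hochberg adjusted p = 0.788).

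Nr5a2 (chr1:136842562-136960448) encodes a nuclear receptor that granulosa cells need for ovulation and luteinisation and that activates steroidogenic genes. Its level was 6.63, 6.48 and 4.43 FPKM in controls and 7.14, 7.33 and 8.53 after aminophylline, from 464 to 1324 reads. Every aminophylline library lay above every control library, and Nr5a2 was the only one of the 3 tested genes whose groups did not overlap. Over the 10340 genes tested, 12.5% had groups that did not overlap. The difference of 0.35 ± 0.221 log2 units (SE) did not pass the test (limma, Benjamini-Hochberg adjusted p = 0.728), and the exact two-sided permutation test of the means gave p = 0.1, the smallest that 3 against 3 libraries allow. Within a library, Cyp19a1 was above Nr5a2 in 6 of 6 libraries, by a ratio of 1.11 to 3.14, although the ranges of the 2 genes over the libraries overlapped.

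Inha (chr1:75507077-75510366), which encodes the alpha subunit of inhibin, the hormone that lowers the release of follicle-stimulating hormone, was the third in level. It was at 0.417, 1.55 and 1.26 FPKM in controls and at 1.05, 1.31 and 1.66 after aminophylline (41 to 148 reads). Control library 1 stood low, and the other 5 libraries lay within 1.05 to 1.66 FPKM. The difference was 0.21 ± 0.242 log2 units (SE, limma, Benjamini-Hochberg adjusted p = 0.818), and without control library 1 it was -0.045. Even its highest value lay below the lowest value of Nr5a2, so the ranges of these neighbours in level did not overlap.

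**Figure D1:**
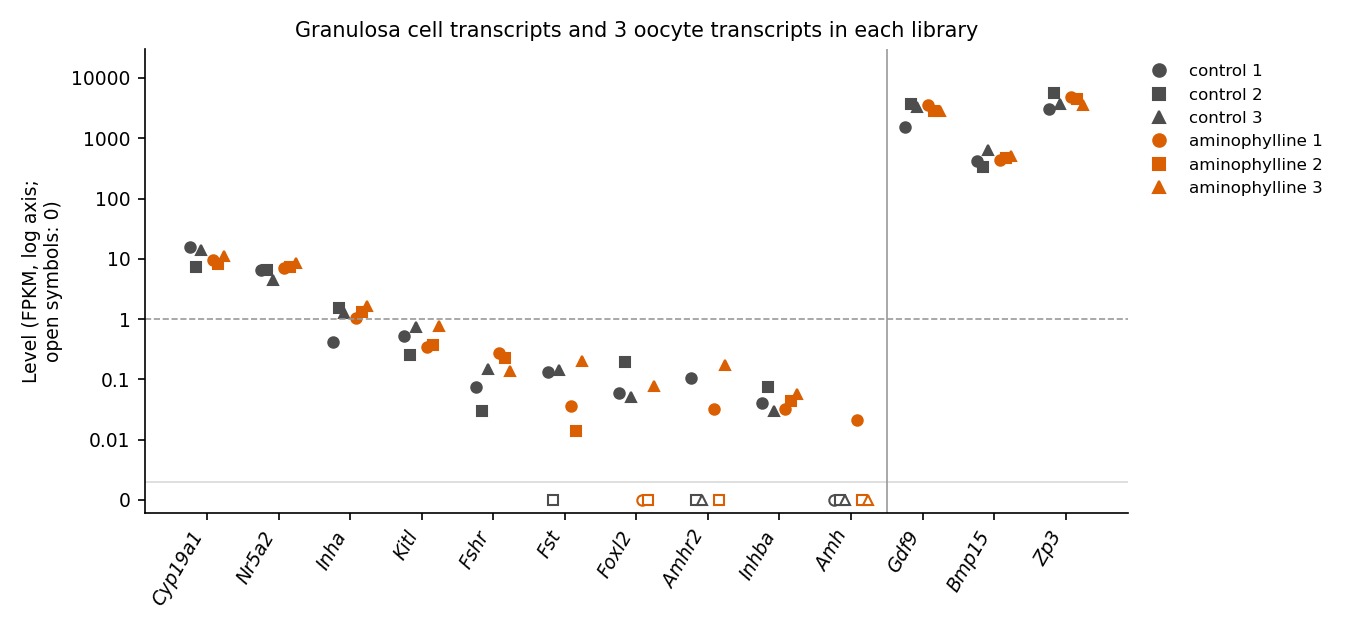
Level of each of the 10 granulosa genes, in order of their mean, and of 3 oocyte genes to the right of the vertical line, in FPKM on a log axis. Each symbol is 1 library, the dashed line marks 1 FPKM, and open symbols at the foot are libraries with 0. Cyp19a1 and Nr5a2 lie above 1 FPKM in all 6 libraries, 7 of the 10 genes lie below 1 FPKM in all of them, and Gdf9, Bmp15 and Zp3 lie at 330 FPKM or more.

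Fshr, Amhr2 and Amh belong to the signals that steer granulosa cells. Fshr (chr17:88984952-89200675), the receptor for follicle-stimulating hormone, was at 0.0756, 0.0300 and 0.147 FPKM in controls and at 0.270, 0.222 and 0.139 after aminophylline. These are 6, 1 and 11 reads against 18, 13 and 10. Aminophylline libraries 1 and 2 lay above every control library, and aminophylline library 3 lay just below control library 3. Fshr stayed below 1 FPKM in every library and was not among the genes tested. In a fit of all listed genes without the filter on low values its difference was 0.16 ± 0.0588 log2 units (SE, limma, unadjusted p = 0.0346, Benjamini-Hochberg adjusted p = 0.836), and the exact permutation test gave p = 0.2.

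Amh, anti-Müllerian hormone, a product of growing follicles that restrains the recruitment of others (chr10:80805240-80807679), had 1 read in all 6 libraries together. It was in aminophylline library 1 (0.0208 FPKM), and the other 5 libraries had 0 reads, which allows up to 0.0523 to 0.125 FPKM at a floor of 3 reads. Amhr2, its receptor (chr15:102445002-102454640), had 8, 0 and 0 reads in controls (0.106, 0 and 0 FPKM) and 2, 0 and 12 after aminophylline (0.0316, 0 and 0.175 FPKM). It exceeded the floor in control library 1 and aminophylline library 3, and 3 libraries had none. Neither was among the genes tested. In the fit of all listed genes without the filter, their differences were 0.0099 ± 0.0134 (Amh) and 0.044 ± 0.0711 log2 units (Amhr2, SE, limma), from these few reads.

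Inhba and Fst act with Inha in the activin and inhibin system. Inhba (chr13:16004256-16031609), the beta A subunit that forms activin A alone and inhibin A with the alpha subunit, was at 0.0409, 0.0731 and 0.0303 FPKM in controls and at 0.0317, 0.0444 and 0.0562 after aminophylline. Its reads, 13 to 25 per library, exceeded the floor everywhere, and its low FPKM goes with the long model of 14541 bases that the values imply. The groups overlapped throughout. Fst (chr13:114452262-114458989), which encodes follistatin, a binding protein that neutralises activin, was at 0.133, 0 and 0.141 FPKM in controls and at 0.0367, 0.0139 and 0.203 after aminophylline. It exceeded 3 reads in 3 of the 6 libraries, with 18 reads at most. Its levels varied more within each group (SD 0.0794 and 0.103 FPKM) than the group means differed (0.0915 and 0.0846 FPKM).

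Kitl (chr10:100015615-100100416) encodes Kit ligand, the signal by which granulosa cells reach the Kit receptor of the oocyte. It was at 0.524, 0.257 and 0.729 FPKM in controls and at 0.349, 0.370 and 0.780 after aminophylline, from 21 to 138 reads. The groups overlapped almost fully, and their means were 0.503 ± 0.236 and 0.5 ± 0.243 FPKM (SD, n = 3 each, exact permutation p = 1). Kit itself, on the oocyte side, was at 8.60 to 25.9 FPKM, so that Kitl reached 0.0212 to 0.0393 of the level of its receptor's transcript.

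Foxl2 (chr9:98955607-98958126), a forkhead factor that keeps granulosa cells in their female fate, had 5, 7 and 4 reads in controls and 0, 0 and 6 after aminophylline. Its levels were 0.0590, 0.197 and 0.0499 FPKM in controls and 0, 0 and 0.0778 after aminophylline. The values overlapped between the groups through aminophylline library 3 (exact permutation p = 0.3). Exons of Foxl2 overlap those of Foxl2os, and exons of Fst those of Gm47040, each on the opposite strand. Whether the counting used strand is not given in the sources used here, so reads of these pairs cannot be told apart.

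In order of their means, the 10 genes ran from Cyp19a1, Nr5a2, Inha, Kitl and Fshr to Fst, Foxl2, Amhr2, Inhba and Amh. Among neighbours in this order, the ranges over the 6 libraries did not overlap between Nr5a2 and Inha and between Inhba and Amh, and overlapped in the other 7 pairs. Kitl was nevertheless above Fshr within each of the 6 libraries, and Inha above Kitl in 5 of 6, the exception being control library 1. Among all 25631 listed genes, Cyp19a1 ranked between 3291 and 4775 in the libraries and Nr5a2 between 4822 and 6451. Inha ranked between 8596 and 12234, so these transcripts were far from the most abundant ones.

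Of the 10 genes, 3 passed the filter of at least 1 FPKM in at least 3 libraries and were tested: Cyp19a1, Nr5a2 and Inha. None was called at an unadjusted p under 0.05 with a fold over 1.5, a threshold that 332 of the 10340 tested genes passed (3.21%, 215 higher and 117 lower in the aminophylline group). None was called at a Benjamini-Hochberg adjusted p under 0.05 by limma either, a threshold that 0 of all tested genes passed (0%), while 750 had an unadjusted p under 0.05. With the replicate block 47 genes passed the adjusted threshold, none of them among the 10. No gene of the 3 had an unadjusted p under 0.05. Their median difference was 0.21 log2 units beside 0.10 over all tested genes. The 7 genes under the filter were not tested, and 4 of them had 0 reads in at least 1 library.

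**Figure D2:**
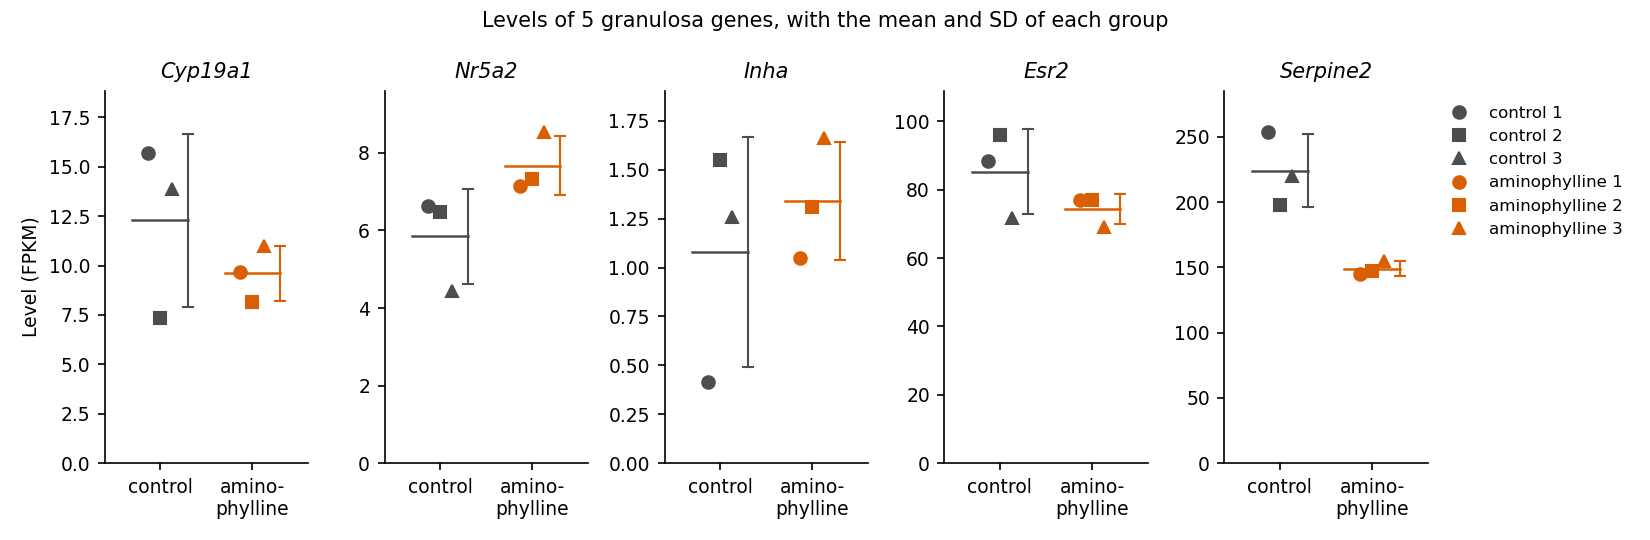
Level in FPKM, on linear axes from 0, of Cyp19a1, Nr5a2, Inha, Esr2 and Serpine2 in each control library (grey) and aminophylline library (orange). Symbols mark replicates 1 to 3, horizontal lines the group means and bars the SD (n = 3). The groups overlap for Cyp19a1, Inha and Esr2, and lie apart for Nr5a2 (higher with aminophylline) and Serpine2 (lower with aminophylline), neither of which was called.

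A further list of 26 granulosa and cumulus genes was read in the same way, and 22 of them were listed in the table. These also fell into a few genes at clear levels and many near 0, since 17 of the 22 stayed below 1 FPKM in every library and 2 never exceeded 3 reads. Serpine2, a secreted protease inhibitor, was the highest, at 254, 198 and 220 FPKM in controls and 145, 147 and 155 after aminophylline. Every aminophylline library was below every control library, with a difference of -0.58 ± 0.154 log2 units (SE, limma, unadjusted p = 0.00308, Benjamini-Hochberg adjusted p = 0.651), which missed the fold of 1.5. It passed both thresholds in 7 of 15 alternatives, among them rescaling to TPM (-0.62), quantile normalization (-0.66) and median centring (-0.66), and in no alternative was its adjusted p under 0.05. Of the libraries left out in turn, control libraries 2 (-0.66) and 3 (-0.59) and aminophylline library 3 (-0.61) gave a call.

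Esr2, the estrogen receptor beta of granulosa cells, was at 88.4, 95.9 and 71.7 FPKM in controls and at 77.0, 76.9 and 69.2 after aminophylline. It lay 5.16 to 13.0 times above Cyp19a1 and 10.2 to 33.0 times above Esr1, the alpha receptor, in the same libraries. Bmpr1b, a receptor for bone morphogenetic proteins, was at 4.74 to 10.6 FPKM and Cyp11a1, the enzyme that starts steroid synthesis, at 1.81 to 3.35. Of the 5 genes of this list that were tested, 0 were called, beside 3.21% of all 10340 genes tested. Among these 5, 3 had a positive difference, and the median was 0.13 log2 units beside 0.10 over all tested genes.

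The genes that cumulus cells switch on when their matrix expands were near 0. For the mice of these oocytes the paper names no human chorionic gonadotrophin, which it gave after the equine hormone to induce ovulation. Whether the matrix had expanded is not known, so low levels of these genes cannot show whether cumulus cells were attached. Has2, the hyaluronan synthase of the expanding matrix, had 1, 0 and 1 reads in controls and 2, 1 and 13 after aminophylline. Vcan, a proteoglycan of the same matrix, had 2, 3 and 3 reads in controls and 7, 7 and 20 after aminophylline. In FPKM the groups of both genes did not overlap, for Vcan only by 0.0144 at most in controls against 0.0168 at least after aminophylline. Of the 10340 genes tested, 12.5% did not overlap, but that share covers only genes that passed the filter, which Has2 and Vcan did not. Both were at or under the floor of 3 reads in every control library, and neither was tested. Ptx3, which cross-links the matrix, had 1 read in all. Ptgs2, which makes prostaglandins, had 11 reads at most, and its groups overlapped. Tnfaip6, Areg and Ereg, of the same list, were not listed in the table. Aminophylline library 3 was also the library in which 5 of the 10 granulosa genes were highest, namely Inha, Kitl, Fst, Amhr2 and Nr5a2. Fst and Amhr2 rested on 18 and 12 reads there. The share of all genes that were highest in this library was not counted, so the 5 genes have no baseline. Without Cyp19a1 and Nr5a2, a choice made after the values were seen, the other 8 genes summed to 3.09 FPKM there, against 1.36, 2.11 and 2.36 in controls and 1.79 and 1.96 in aminophylline libraries 1 and 2.

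**Figure D3:**
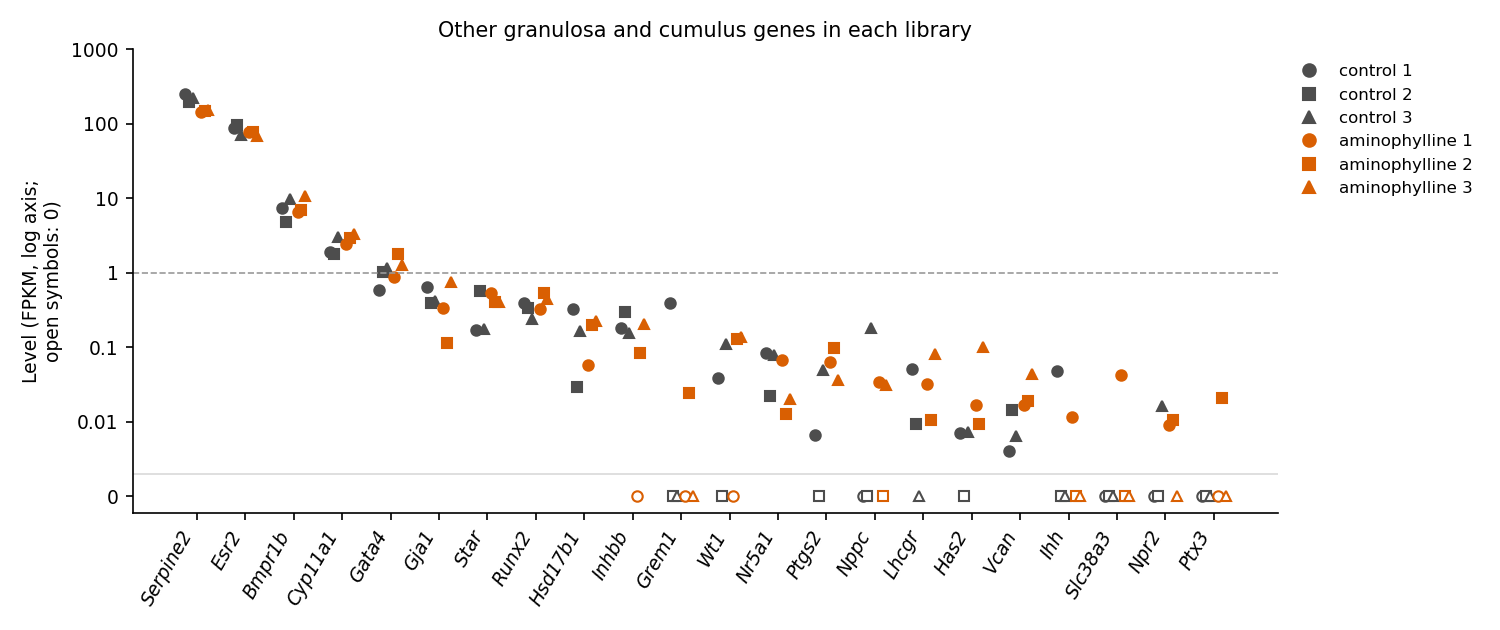
Level of the 22 listed genes of the further granulosa and cumulus list, in order of their mean, in FPKM on a log axis. Each symbol is 1 library, the dashed line marks 1 FPKM, and open symbols at the foot are libraries with 0. Serpine2, Esr2, Bmpr1b and Cyp11a1 lie above 1 FPKM in all 6 libraries, and 17 genes lie below it in all.

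The purity of the oocytes was read from summed levels. No library of granulosa cells was there to give these sums a scale, and the lists differ in their number of genes. The sums therefore do not measure a share of granulosa cells. The 10 granulosa genes summed to 23.7, 16.0 and 20.7 FPKM in controls and to 18.6, 17.4 and 22.6 after aminophylline, 0.00271% to 0.00435% of all FPKM of a library. Without Cyp19a1 and Nr5a2 the sum was 0.000249% to 0.00057%. The 22 other granulosa and cumulus genes summed to far more, 355, 304 and 307 FPKM in controls and 233, 237 and 242 after aminophylline (0.04% to 0.0652%), led by Serpine2 and Esr2. These sums did not overlap between the groups, as the levels of Serpine2 alone did not, and they were not tested. The granulosa genes thus did not give 1 level: Serpine2, Esr2, Cyp19a1, Nr5a2, Bmpr1b and Cyp11a1 were above 1 FPKM in every library. Inha (41 to 148 reads) and Kitl (21 to 138 reads) lay lower but over the floor in every library. Amh, Amhr2, Foxl2, Fshr, Inhba and Fst were at or near 0 in FPKM, a grouping made after the values were seen. These 6 genes together had 23 to 71 reads in a library of 14112341 to 33641283 reads. In contrast, the 16 oocyte markers summed to 21103 to 28998 FPKM, 3.88% to 4.93%, all 16 exceeded 1 FPKM in every library, and Dppa3, Zp3, Gdf9 and Ooep led them. The leading markers were those of oocytes, as the samples are labelled.

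Of the markers of other cells of the ovary, those of macrophages had the highest sums (81.1 to 242 FPKM), and within each library these stayed below the sum of the 22 other granulosa and cumulus genes. Summed theca markers, of 5 genes, lay at 1.44 to 4.42 FPKM, led by Hsd3b1 and Aldh1a1, with Cyp17a1 at 2 reads or fewer. Stroma markers (6 genes, led by Dcn) lay at 0.5 to 1.6 FPKM, surface epithelium markers (4 genes) at 0.333 to 1.69 and endothelial markers (5 genes, led by Pecam1) at 5.63 to 8.91. Pecam1 alone was at 4.87 to 6.66 FPKM and Tek at 0.62 to 2.15, while Kdr was at 0.213 FPKM or less and Cldn5 had 2 reads in all. Of the 4 erythrocyte markers, 3 never exceeded 3 reads.

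Macrophage markers set control library 1 apart. Of the 10 markers, 9 were highest there, and their summed level was 242 FPKM in that library against 81.1 to 102 in the other 5. C1qb, at 72.3 to 99.8 FPKM in every library, carried most of the sum elsewhere, while Adgre1 and C1qc were at 0 in all 5 other libraries. The same library had the highest Cyp19a1 (15.7 FPKM), the lowest Inha (0.417 FPKM) and 22 of the 23 reads of Grem1, an antagonist of bone morphogenetic proteins made by cumulus cells. Control library 3, with the lowest macrophage sum (81.1 FPKM), had Cyp19a1 at 13.9 FPKM. The part of macrophages in the levels of the granulosa genes was not tested. Without control library 1, the difference of Cyp19a1 was -0.083 log2 units and that of Nr5a2 was 0.44, neither called.

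**Figure D4:**
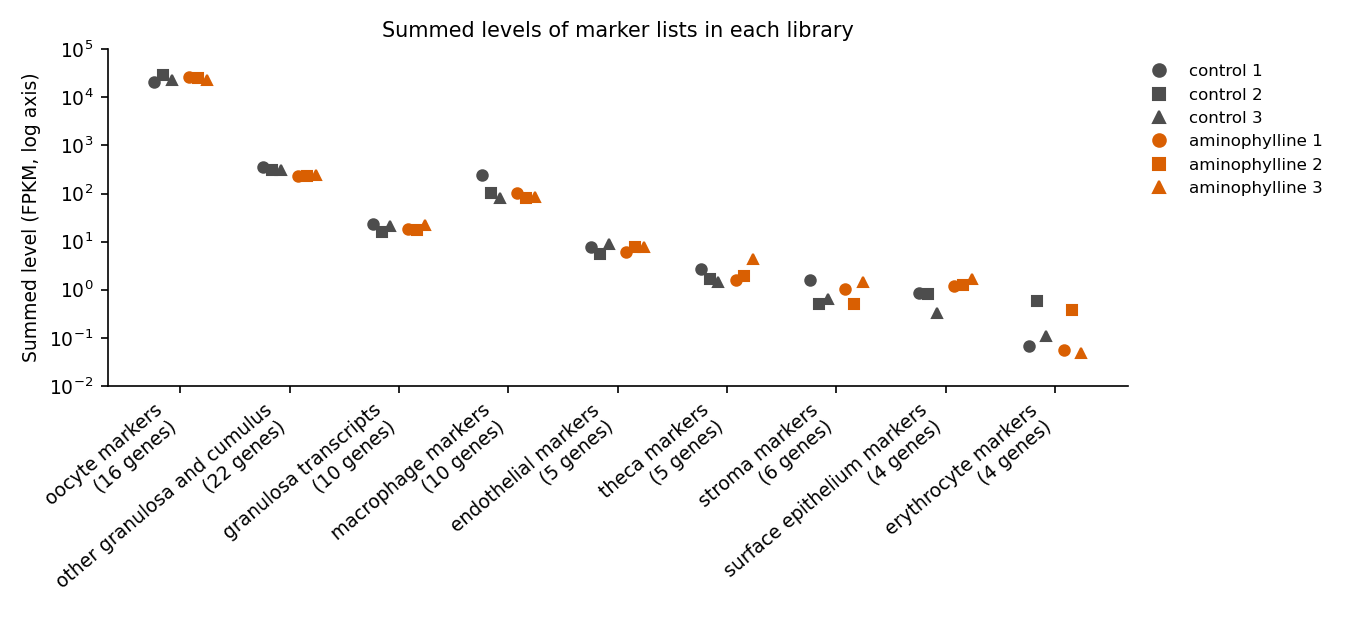
Summed level of each marker list in each library, in FPKM on a log axis, with the number of listed genes in brackets. The oocyte markers sum to 21103 FPKM or more and the 10 granulosa transcripts to 16.0 to 23.7 FPKM, and the macrophage markers are at 242 FPKM in control library 1 against 102 or less in the other 5.

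The partners of these genes were counted from lists of their pathways. Over all 10340 genes tested 3.21% were called, so 0 calls in lists this short say little. Of 9 listed ligands of the TGF-beta superfamily, to which activin, inhibin and Amh belong, 5 were tested and 0 were called. The highest were the oocyte's own Gdf9 and Bmp15, followed by Tgfb2 (38.6 to 52.5 FPKM) and Bmp6 (17.6 to 31.2). Inhbb, the other activin subunit, was at 0 to 0.3 FPKM. Of 6 listed binding proteins and inhibitors 1 was tested and 0 were called, and Tgfbr3, the co-receptor that binds inhibin, led them at 2.31 to 4.17 FPKM.

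Receptors and Smad proteins carry these signals into the cell. Of 11 receptors 5 were tested and 0 were called, and the median difference of the 5 was 0.15 log2 units. Acvr1b, a type I receptor for activin, was at 1.23, 1.2 and 2.24 FPKM in controls and at 1.64, 3.06 and 4.05 after aminophylline. The groups overlapped, and the difference of 0.59 log2 units did not pass (limma, unadjusted p = 0.0556, Benjamini-Hochberg adjusted p = 0.688). With the replicate block its unadjusted p was 0.00858 and it was the 1 gene of these pathway lists past both thresholds (limma, Benjamini-Hochberg adjusted p = 0.198). That fit called 395 of all 10340 tested genes (268 higher, 127 lower), so 1 call in these lists says little. The type II activin receptors Acvr2a (0.149 to 0.661 FPKM) and Acvr2b (0.160 to 0.469) lay below 1 FPKM. Of 7 Smad genes 5 were tested and 0 were called, and Smad3, which is phosphorylated by activin receptors, led at 7.00 to 15.7 FPKM.

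Downstream of Kit, 12 of 14 genes of the PI3K pathway list were tested and 0 were called, with a median difference of 0.17 log2 units. Kit, Pik3cd, Foxo3 and Pdpk1 led this list, and Foxo3, the factor whose exit from the nucleus starts follicle growth, was at 8.80 to 19.1 FPKM. Around Nr5a2, 8 of 15 partner and steroidogenic genes were tested and 0 were called, with a median difference of 0.18. Ctnnb1 (15.4 to 44.3 FPKM) and Ncoa3 (12.2 to 20.9 FPKM), coactivators of nuclear receptors, were clearly present. Nr5a1, the relative that binds the same DNA core, was at 0.0127 to 0.0841 FPKM, so Nr5a2 exceeded it 56.0 to 577 times, with 1 to 9 reads of Nr5a1 behind these ratios. Star, Hsd17b1 and Cyp17a1, further enzymes and carriers of steroid synthesis, stayed below 1 FPKM in every library. Of the same list, Cyp11a1 (1.81 to 3.35 FPKM) and Por (1.81 to 4.97 FPKM) lay above 1 FPKM in every library, and Hsd3b1 ranged from 0.566 to 3.07 FPKM.

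The genes whose profile over the 6 libraries lay nearest to the tested ones were found by the root mean square difference of centred log2(FPKM + 1) values. For Cyp19a1 these were Jag1, a Notch ligand (difference 0.0542 log2 units), and Mcmbp, a partner of the replicative helicase (0.0701), against a spread of Cyp19a1 itself of 0.356. Jag1 was at 67.2, 31.4 and 59.9 FPKM in controls and at 38.9, 35.6 and 48.9 after aminophylline, with the same order of libraries as Cyp19a1. For Nr5a2 the nearest were Gm8247 (0.0653) and Lrrc45 (0.0779), and for Inha Gm30978 (0.0752) and Tbrg4 (0.0862). With 10340 candidates and 6 libraries, these neighbours are given as a description only.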

How the data were processed

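The authors deposited FPKM values, 1 column per library, for 25631 genes with at least 1 read. The labels name the builds GRCm38 and mm10. The aligner and the counting program are not given in the sources used here. Gene positions are from RefSeq on GRCm38.p6 and exon overlaps from GENCODE annotation of the same build. Whole reads were recovered from the ratios between libraries (100% of 22583 genes, relative tolerance 1e-06), with totals of 14112341 to 33641283 reads. For genes read in 1 library, and where the ratios left a shared factor (Amhr2), the smallest whole number that gave a transcript longer than the annotated coding length was taken. The floor was 3 reads, and it covers counting error only.

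Groups came from the labels. limma 3.58.1 in R 4.3.3 (moderated variance with a trend, two-sided) was run on log2(FPKM + 1), which understates changes of low genes, for 10340 genes with at least 1 FPKM in at least 3 libraries. A gene was called at an unadjusted p under 0.05 and a fold over 1.5. Adjusted p-values are Benjamini-Hochberg values over all tested genes. Exact permutation tests were two-sided. Nothing in the labels says that libraries came from separate animals, so p-values measure the spread between these libraries. The replicate numbers 1 to 3 stand in the labels of both groups. A fit with the number as a block was therefore run beside the unblocked one. Deviations from the group means correlated at 0.138, 0.140 and 0.552 within numbers, but at 0.423 between control 2 and aminophylline 1. These correlations do not show that the numbers pair the libraries. The fit was tested on simulated data.

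The members and the lists were chosen with earlier results of these data known. Named were all 10 genes, 3 oocyte genes, the 4 genes with the highest mean in each other list and any list gene called, and the 2 nearest profiles of each tested gene. The genes named beyond this rule (Has2, Vcan, Ptx3, Ptgs2, Inhbb, Acvr2a, Acvr2b, Nr5a1, Star, Hsd17b1, Cyp17a1, Grem1, Akt1, Por, Adgre1 and C1qc) were chosen after their values were seen. Tnfaip6, Areg and Ereg, also beyond this rule, had no values. Alternatives were another pseudocount, other filters, rescaling to TPM, quantile normalization, median centring, an unmoderated model, the replicate block, voom on the recovered reads and leaving out each library. Python 3.11.15 with pandas 2.3.3, scipy 1.17.1 and matplotlib 3.10.9 was used for the rest.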

Additional observations from a re-analysis of the deposited data

How the results depend on the processing

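Cyp19a1, Nr5a2 and Inha gave 0 calls, at the unadjusted and at the adjusted threshold, in each of the 15 alternatives that tested them. The other 7 genes were tested only in the fit without a filter, which called 0 of the 10. The difference of Cyp19a1 stayed negative (-0.58 to -0.083, the first without control library 2 at an unadjusted p of 0.0197 by limma and just under the fold of 1.5), and that of Nr5a2 stayed positive (0.19 to 0.44). Inha turned to -0.045 without control library 1, ranged from there to 0.38 (without control library 2) over the libraries left out, was 0.43 with a pseudocount of 0.1, 0.59 with voom on the recovered reads (unadjusted p = 0.239) and 0.076 with quantile normalization, beside 0.21 in the fit reported, and was not tested once a mean level of 5 FPKM was required. The summed level of the 10 genes (19.8 FPKM, SD 3.01) was 20.0 FPKM after rescaling to TPM and 19.1 to 20.6 when each library was left out. Over all tested genes, 332 were called, against 200 where a mean level of 5 FPKM was required, 158 with the unmoderated model, 500 with voom on the recovered reads, and 183 (without control library 1) to 1006 (without control library 3) when a library was left out. The count was 763 without control library 2 and 594 without aminophylline library 1. Beside 215 higher and 117 lower genes, rescaling gave 147 and 151, quantile normalization 127 and 217, and median centring 132 and 227. These scalings moved the median difference of all genes from 0.10 to 0.06, 0.01 and 0.013 log2 units. The pathway lists had 0 to 7 called genes with a library left out, 3 without aminophylline library 1 (Acvr1b, Pik3cd, Smad3) and 7 without control library 3 (Acvr1b, Akt1, Ctnnb1, Pik3cd, Por, Smad3, Smad4). In the same order, these fits called 594 (476 higher, 118 lower) and 1006 (876 higher, 130 lower) of all 10340 tested genes. With the replicate block, 395 of all 10340 tested genes were called, and 1 of them, Acvr1b, was a pathway gene. The 47 genes with an adjusted p under 0.05 in that fit did not include Acvr1b. The block changed no other call reported here. The causes were not tested. Read depth limits what can be said of the genes with few reads.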
